A study of Mus musculus and Rattus norvegicus with 60 samples.

Results

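Nuclear genes that encode subunits of the mitochondrial respiratory chain were followed through the growth plates of mice and rats. A gene was a member if its symbol, in upper or lower case, began with Ndufa, Ndufb, Ndufc, Ndufs, Ndufv, Uqcr, Cox4i, Cox5, Cox6, Cox7, Cox8 or Atp5, or was Sdha, Sdhb, Sdhc, Sdhd, Cycs or Cyc1. Names beginning with Ndufaf, which are assembly factors, were left out. This rule used names only and no measured value, but it was chosen with earlier results of these data known. It found 86 of 20155 genes in the mouse and 80 of 15163 in the rat, and 78 symbols were listed in both species. Of these, 83 mouse and 77 rat members reached a normalised read count of 10 in 5 or more libraries and were tested, among 15213 and 11760 genes tested in all. The members not tested were Cox8b, Cox8c and Ndufs5 in the mouse and Cox8b, Uqcr11 and Ndufa1 in the rat. Atp5k, Cox6a2, Cox6b1, Cox7a1, Cox8c, Ndufa13, Ndufa3 and Ndufc1 were listed in the mouse alone, and Atp5i (another name of Atp5k) and Ndufa10l1 in the rat alone. Subunits encoded in mitochondrial DNA were not analysed here.

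The respiratory chain sits in the inner mitochondrial membrane. Complexes I (NADH dehydrogenase) and II (succinate dehydrogenase) pass electrons to complex III (cytochrome bc1 complex), cytochrome c carries them to complex IV (cytochrome c oxidase), which reduces oxygen, and complex V (ATP synthase) uses the resulting proton gradient to make ATP. Growth plate cartilage has no blood vessels of its own, and its chondrocytes are known for a low oxygen supply and strong reliance on glycolysis. Several subunits of complex IV have tissue-specific or oxygen-dependent isoforms.

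Growth plates were cut by laser capture microdissection into a proliferative (PZ) and a hypertrophic (HZ) zone, and each was profiled by RNA-Seq, in C57BL/6 mice and Sprague Dawley rats, male by the Methods. Each species has 6 groups: PZ and HZ of the proximal tibia at 1 wk, of the proximal tibia at 4 wk, and of a forelimb proximal phalanx at 1 wk. Each group held 5 animals, except that 4 libraries were available for the mouse phalanx PZ. As the tibia belongs to the hindlimb, effects of bone and of limb cannot be told apart. Whether PZ and HZ libraries came from the same animals is not given, and they were taken as independent.

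Reads counted in genes ranged from 19711370 to 41856130 in the mouse libraries and from 7808455 to 28994264 in the rat libraries. In the mouse, between 31.0% and 80.8% of them fell on the ribosomal RNA precursor Rn45s, which left 5240960 to 27649840 for other genes. The chondrocyte markers (Col2a1, Acan, Sox9 and 5 others) were detected in all libraries, with sums of 134000 or more. The PZ markers Gdf10, Prelp and Bmp7 summed to 48900 to 147000 normalised counts in the mouse PZ libraries and to 790 to 31000 in the mouse HZ libraries. The highest HZ value, 31020, belonged to replicate 5 of the mouse phalanx HZ. The other 4 libraries of that group had at most 1847, so this library stands apart. In the rat, replicate 3 of the 4-wk tibia HZ had 35090, against at most 15560 in the other 4 libraries of its group. Markers of cells from bone and marrow were also present, mostly in HZ: the 8 macrophage and osteoclast markers summed to 48900 to 116000 in the mouse phalanx HZ, to 14400 to 24200 in the mouse 1-wk tibia HZ and to 393 to 4050 in the mouse 1-wk tibia PZ. In such captured tissue, fewer cells of a type and less RNA per cell cannot be told apart.

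In the mouse, where gene lengths were known, levels were compared between members per length. The length was that of all annotated exons of a gene joined together. It can exceed the length of the transcript that the cells made, so ranks per kb depend on it. Levels per kilobase of exon, averaged over the 6 groups, were highest for Cox6a1, the common isoform of complex IV subunit 6a, at 1937 normalised counts per kb. Cox8a, also of complex IV, followed at 1373. The highest member of complex V was Atp5b, the catalytic beta subunit of ATP synthase, at 1255, and that of complex I was Ndufa1, a small subunit, at 887.5. In complexes II and III the highest levels per kb were those of Sdha, the flavoprotein subunit of succinate dehydrogenase, at 361.8, and Uqcr10, a small subunit of complex III, at 642.7. The median level per kb was 321.1 for the 17 members of complex IV, 272.0 for the 4 of complex II, 194.1 for the 17 of complex V, 172.7 for the 9 of complex III and 126.7 for the 38 named for complex I. The lowest member per kb was Ndufs5 at 0.08545 in complex I, Cox8c at 0.3605 in complex IV, Atp5l at 4.172 in complex V, Uqcrc1 at 111.5 in complex III and Sdhb at 135.0 in complex II. Cycs, which encodes cytochrome c, had 33.9. Cycs, Atp5l and Ndufs5 have near-identical copies elsewhere in the genome, so their counts are uncertain. Uqcrc1 had a mean normalised count of 465 over the mouse libraries, above Uqcrb at 126, but a length of 4135 bases against 876.

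Averaged over the tested members, the mean level was lowest in the phalanx PZ and highest in the 4-wk tibia PZ in each species. The mean log2(normalised count + 1) of the 83 mouse members was 7.82 ± 0.188 (SD, n = 5) in the 1-wk tibia PZ and 7.64 ± 0.219 (n = 5) in its HZ, 8.22 ± 0.0785 (n = 5) and 7.99 ± 0.12 (n = 5) in the 4-wk tibia, and 7.41 ± 0.11 (n = 4) and 8.08 ± 0.215 (n = 5) in the phalanx. PZ and HZ libraries overlapped in the 1-wk tibia. In the phalanx every HZ library, at 7.742 to 8.31, lay above every PZ library, at 7.282 to 7.547, and the lowest HZ value belonged to replicate 5. In the rat the mean log2 level of the 77 members was 8.23 ± 0.13 in PZ and 8.37 ± 0.0867 in HZ for the 1-wk tibia, 8.76 ± 0.102 and 8.75 ± 0.0453 in the 4-wk tibia, and 8.16 ± 0.117 and 8.63 ± 0.217 in the phalanx (n = 5 each). Rat phalanx HZ libraries ranged from 8.39 to 8.913 and did not overlap with the PZ libraries, at 8.029 to 8.347. As a share of reads other than Rn45s, members took 0.204% ± 0.018 in the mouse phalanx PZ and 0.442% ± 0.0861 in its HZ, and 0.276% ± 0.00779 and 0.421% ± 0.0736 in the rat phalanx.

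**Figure D1:**
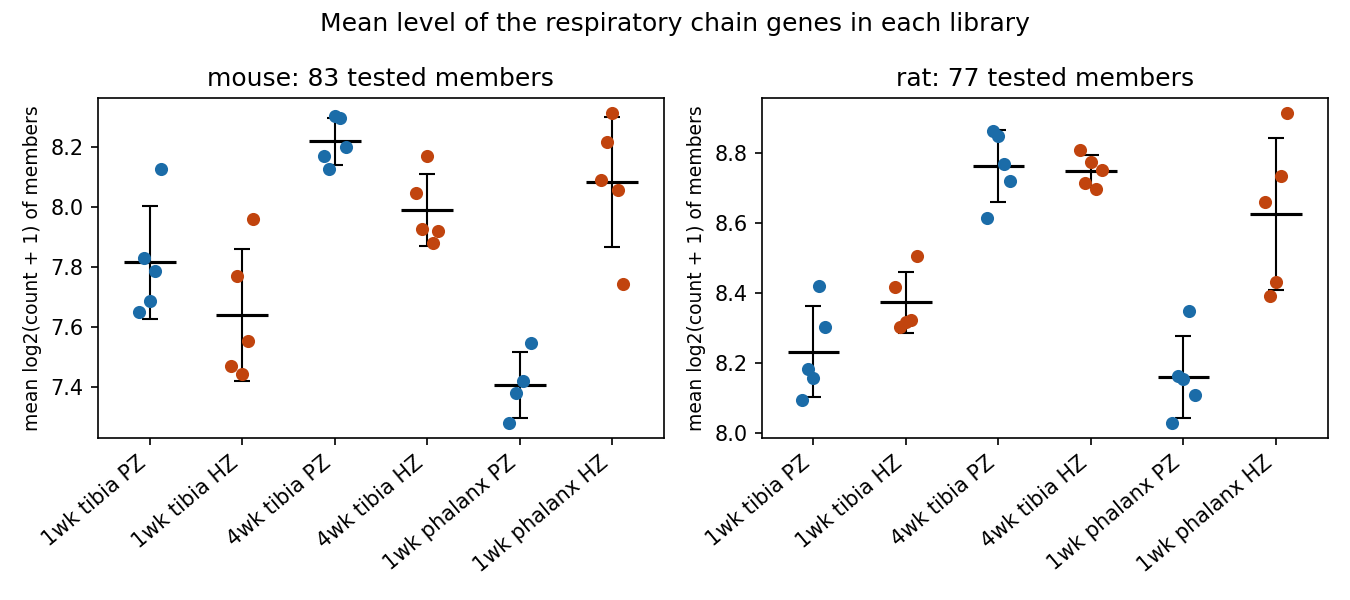
Mean log2(normalised count + 1) over the tested members, vertical axis, for each library of the 6 groups on the horizontal axis, mouse at left and rat at right; points are libraries and bars are group means with SD. In the phalanx the HZ libraries lie above the PZ libraries in both species (7.742 to 8.31 against 7.282 to 7.547 in the mouse), and in the tibia the 4-wk groups have higher means than the 1-wk groups of the same zone.

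The first comparison, HZ against PZ of the tibia, asked what changes as chondrocytes stop dividing and enlarge. Few members changed with zone in the tibia. Ndufa4l2, a paralogue of Ndufa4 known as a target of the hypoxia-inducible factor HIF1, and Cox4i2, the oxygen-responsive isoform of complex IV subunit 4, were lower in HZ in both species and at both ages.

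Ndufa4l2 (GRCm38 chr10:127514967-127517154, plus strand) had normalised counts of 1169, 1530, 1073, 778 and 1115 in the 5 mouse 1-wk tibia PZ libraries and of 98.7, 31.5, 230, 137 and 156 in the HZ libraries. In the mouse 4-wk tibia it had 1239, 1123, 616, 1201 and 1832 in PZ and 78.2, 45.8, 65.4, 115 and 156 in HZ. All PZ libraries were well above all HZ libraries at both ages. The log2 difference was -3.33 ± 0.53 (SE) at 1 wk (adjusted p = 7.32e-06) and -3.74 ± 0.53 at 4 wk (adjusted p = 1.7e-06). In the rat the gene had 305, 283, 349, 330 and 243 in the 1-wk PZ and 15.5, 120, 87.1, 58.4 and 20.1 in the HZ, a log2 difference of -2.69 ± 0.51 (adjusted p = 5.97e-05). At 4 wk the rat values were 197, 318, 222, 276 and 302 in PZ and 41.6, 89.2, 215, 91.3 and 85.2 in HZ. Here 1 HZ library, replicate 3 at 215, reached into the PZ range, and the log2 difference was -1.50 ± 0.51 (adjusted p = 0.0312). This call held in 10 of 18 alternatives, over which the difference ranged from -1.80 to -0.68, and it was -1.80 without replicate 3 of the HZ.

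Cox4i2 (GRCm38 chr2:152754173-152765037, plus strand) had 505, 400, 302, 286 and 461 normalised counts in the mouse 1-wk PZ and 16.0, 142, 136, 4.72 and 148 in the HZ. At 4 wk it had 834, 972, 1247, 1184 and 1064 in PZ and 154, 132, 258, 202 and 183 in HZ. The zones did not overlap at either age, and the log2 differences were -2.96 ± 0.74 (adjusted p = 0.00188) and -2.53 ± 0.74 (adjusted p = 0.00864). The rat 1-wk tibia had 857, 446, 460, 471 and 513 in PZ and 289, 367, 174, 219 and 198 in HZ, and the rat 4-wk tibia 729, 1390, 938, 852 and 1204 in PZ and 160, 392, 696, 477 and 588 in HZ. The zones were again separate, with log2 differences of -1.14 ± 0.31 (adjusted p = 0.00309) and -1.26 ± 0.31 (adjusted p = 0.00274).

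The counterparts that most tissues use did not pass the test in the tibia. Ndufa4, a subunit of complex IV despite its name, differed between zones by 0.24 ± 0.28 and 0.01 ± 0.28 on the log2 scale at 1 and 4 wk in the mouse (adjusted p = 0.51 and 0.989) and by 0.25 ± 0.18 and 0.04 ± 0.18 in the rat (adjusted p = 0.282 and 0.916). Cox4i1 differed by 0.03 ± 0.21 and 0.09 ± 0.21 in the mouse (adjusted p = 0.927 and 0.767) and by 0.17 ± 0.25 and -0.01 ± 0.25 in the rat (adjusted p = 0.622 and 0.989). The ratio of each isoform pair was lower in HZ. Per kb of exon, the median mouse library had 5.717 times as much Ndufa4l2 as Ndufa4 in the 1-wk tibia PZ and 0.5958 times as much in the HZ, and 3.92 and 0.2121 times as much at 4 wk. For Cox4i2 over Cox4i1 the median per-kb ratio was 1.3 in PZ and 0.2974 in HZ at 1 wk, and 2.872 and 0.4615 at 4 wk. Without correction for length it was 0.6609 and 0.1512 at 1 wk, and 1.46 and 0.2346 at 4 wk. Whether Cox4i2 exceeded Cox4i1 in the mouse 1-wk PZ thus depended on the exon lengths used, 788 bases for Cox4i2 and 1550 for Cox4i1. In the rat, as a ratio of normalised counts with no correction for length, Ndufa4l2 over Ndufa4 had a median of 0.2914 in the 1-wk PZ and 0.0349 in the HZ, and Cox4i2 over Cox4i1 of 1.587 and 0.7091.

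**Figure D2:**
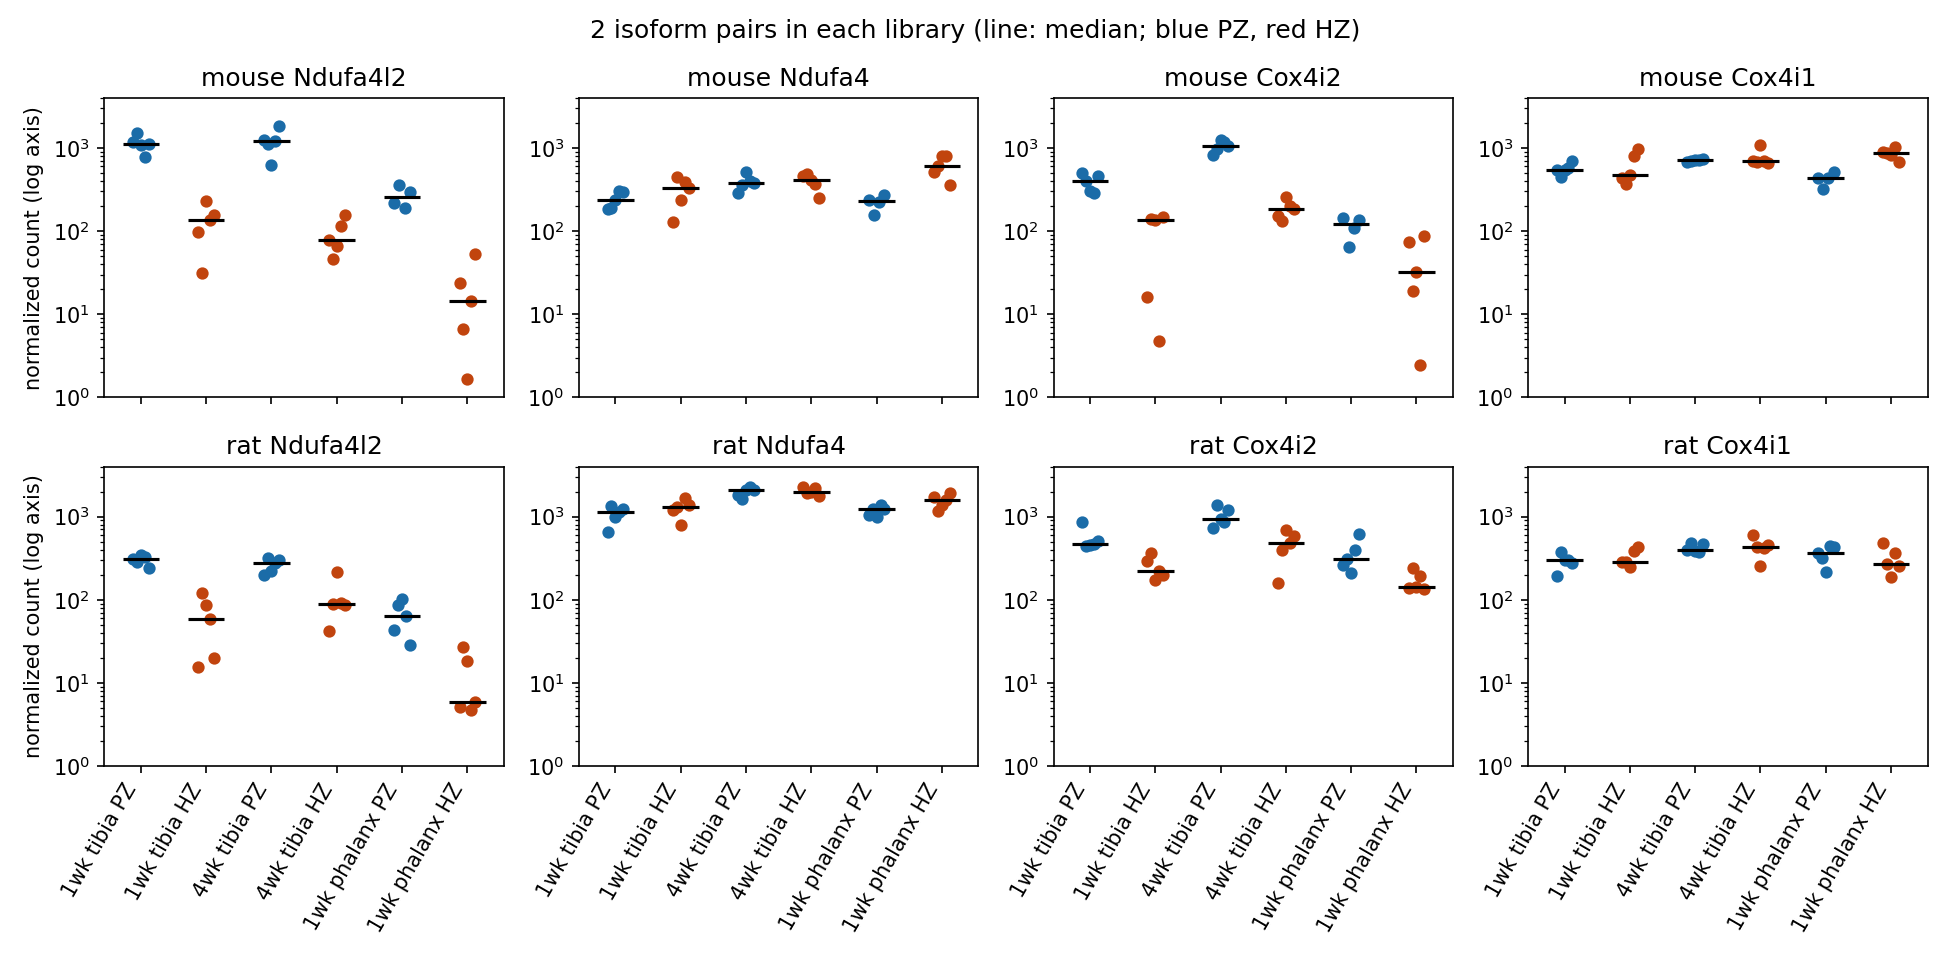
Normalised counts (log axis) of the isoforms Ndufa4l2 and Cox4i2 and of their counterparts Ndufa4 and Cox4i1 in each library of the 6 groups, mouse and rat; points are libraries and lines mark group medians. Ndufa4l2 has a lower median in HZ than in PZ in each bone and age, and goes down to 1.66 in a mouse phalanx HZ library. Its zones overlap in the rat 4-wk tibia, where the highest HZ library has 215. Ndufa4 and Cox4i1 overlap between the zones of the tibia.

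Cells of vessel walls can also express these isoforms, so their markers were set beside them. The 5 endothelial markers moved the other way: their sum was 67 to 624 in the mouse 1-wk tibia PZ and 2720 to 14100 in the HZ. The pericyte genes were chosen after their values were seen. Pdgfrb had a median of 107 in that PZ and 1730 in the HZ, and Abcc9 of 79.7 and 1480. Kcnj8 had at most 3.66 in that PZ and 93.7 to 234 in the HZ. Rgs5 did not separate these zones, with overlapping ranges and medians of 0.914 and 5.33. In the mouse 4-wk tibia Rgs5 had 8.14 to 57.3 in PZ and 4.78 to 72.1 in HZ, with the lower median in HZ. When a score of the macrophage and osteoclast, osteoblast and endothelial markers, itself different between the zones, was added to the model, Ndufa4l2 kept a difference of -2.55 in the mouse 4-wk tibia (adjusted p = 0.0311). It had -1.72 ± 0.95 in the mouse 1-wk (adjusted p = 0.287), -1.86 ± 0.70 in the rat 1-wk (adjusted p = 0.051) and -0.68 ± 0.70 in the rat 4-wk tibia (adjusted p = 0.71). Cox4i2 had -2.04 ± 1.41 and -1.85 ± 1.16 in the mouse and -0.89 ± 0.44 and -1.01 ± 0.43 in the rat at 1 and 4 wk, with adjusted p between 0.144 and 0.42. The SE were wider than without the score and the differences smaller. The part of these cells in the differences was not tested further.

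Most members did not pass the test between the zones of the tibia. In the mouse 1-wk tibia 6 members rose and 9 fell in HZ, while 20.4% of all tested genes rose and 23.7% fell. TMM scaling, which places libraries on a slightly different common scale, gave 3 and 9. The median log2 difference was 0.02 over members and -0.15 over all genes. In the mouse 4-wk tibia limma called 0 members higher and 3 lower (Ndufa4l2, Cox4i2 and Uqcr11 at -0.76 ± 0.29), against 18.6% and 16.6% of all genes. At an unadjusted p under 0.05 1 member was higher and 5 were lower, and limma-voom on reads called 1 higher and 10 lower. In the rat 1-wk tibia 12 members rose and 3 fell (Ndufa4l2, Cox4i2 and Uqcr10 at -0.52 ± 0.18), against 22.6% and 19% of all genes. In the rat 4-wk tibia Uqcrfs1 (0.68 ± 0.24) and Cox5a (0.60 ± 0.22) rose and Cox4i2 and Ndufa4l2 fell, against 13.5% and 7.82% of all genes. TMM scaling gave 1 higher and 2 lower there.

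Beside the isoforms, Sdhc and Cox5b changed in the same direction in both species at 1 wk. Sdhc, a membrane anchor of succinate dehydrogenase, had 447, 564, 412, 576 and 588 normalised counts in the mouse 1-wk tibia PZ and 963, 1333, 671, 874 and 1187 in the HZ. All HZ libraries were higher, with a log2 difference of 0.93 ± 0.20 (adjusted p = 0.000337). In the rat Sdhc had 710, 1214, 1043, 1422 and 1025 in PZ and 1647, 1532, 2116, 2122 and 1518 in HZ, a difference of 0.74 ± 0.18 (adjusted p = 0.00101). Cox5b, a peripheral subunit of complex IV, rose by 0.61 ± 0.18 in the mouse (adjusted p = 0.00502) and by 0.84 ± 0.22 in the rat (adjusted p = 0.00227). Its mouse values were 369 to 512 in PZ and 609 to 747 in HZ, and its rat values 342 to 758 and 805 to 1040, without overlap in either species. Over the 4 mouse members named as higher here, both genes among them, the median was 0.77. With the score of bone, macrophage and endothelial markers it was 0.33, the median SE went from 0.19 to 0.35, and 0 passed. For the 8 named rat members the median was 0.65 without and 0.66 with the score, and 4 passed with it. The part of these cells was not tested.

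HZ against PZ in the phalanx, a shorter and more slowly growing bone, gave a different picture. Here 46 of 83 mouse members (55.4%) rose in HZ and 3 fell, against 17.9% and 17.2% of all tested genes, and 32 of 77 rat members (41.6%) rose and 4 fell, against 22.9% and 17.7%. The median log2 difference was 0.85 over mouse members and -0.04 over all mouse genes, and 0.44 and 0.08 in the rat. The libraries of the zones did not overlap, with HZ higher, for 30 of 83 mouse members, against 12.9% of all genes, and for 15 of 77 rat members, against 14.7%. The rat count was near the share of all rat genes and is not read as a result about the members. Without replicate 5 of the mouse phalanx HZ, 53 mouse members rose. Library depth also differed between these groups. Rat libraries held 17051693 to 22645201 reads in the phalanx HZ and 8537412 to 14652145 in its PZ. In the rat 1-wk tibia they held 7808455 to 11054499 in HZ and 11707550 to 15762416 in PZ. Median mouse reads other than Rn45s were 11601935 in the phalanx HZ and 10986989 in its PZ. In the mouse 1-wk tibia they were 5678503 and 12363605. What part depth had in the rise was not tested.

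Counts by complex were read against the 17.9% of mouse and 22.9% of rat genes called higher. In the mouse, 13 of 17 members of complex V, 10 of 15 of complex IV, 6 of 9 of complex III, 4 of 4 of complex II and 13 of 37 named for complex I rose, and the median log2 differences were 0.81, 1.01, 0.95, 1.07 and 0.65. In the rat, 8 of 17, 6 of 12, 7 of 8, 2 of 4 and 8 of 35 rose, with medians of 0.38, 0.66, 0.61, 0.45 and 0.40, and cytochrome c rose by 1.06. The rat share of complex I, 22.9%, equalled that of all rat genes, so it is not a result about complex I. Of the 5 complexes, complex I had the smallest share of risen members in both species.

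Of the 74 members tested in both species, 20 rose in both, which is 48.8% of the 41 that rose in the mouse and 64.5% of the 31 in the rat. They were Cox8a, Cox6c, Cox6a1, Cox7b and Cox5a of complex IV, Atp5b, Atp5a1, Atp5c1, Atp5d, Atp5g3 and Atp5o of complex V, Uqcr10, Uqcrh, Uqcrc1, Uqcrfs1 and Cyc1 of complex III, Sdhb and Sdhd of complex II, and Ndufs7 and Ndufc2 of complex I. With 41 and 31 of the 74 called higher, many shared members would arise from these counts alone. The share of all genes called higher in both species was not computed, so the 20 are not read as agreement between species.

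Cox8a, the common isoform of subunit 8 of complex IV, and Cox6c had the smallest larger adjusted p of the 2 species. Cox8a had 340, 498, 540 and 455 normalised counts in the mouse phalanx PZ and 1245, 1464, 1204, 845 and 890 in the HZ. All HZ libraries were higher, with a log2 difference of 1.29 ± 0.20 (adjusted p = 4.46e-06). The rat had 212, 236, 268, 362 and 396 in PZ and 993, 842, 994, 1375 and 1799 in HZ, and the difference was 2.01 ± 0.24 (adjusted p = 7.01e-08). Cox6c, a small subunit of complex IV, had 148, 94.7, 158 and 185 in the mouse PZ and 458, 405, 580, 395 and 312 in the HZ. It rose by 1.56 ± 0.26 (adjusted p = 2.09e-05). Rat libraries had 345, 377, 363, 282 and 804 in PZ and 957, 915, 1357, 948 and 1384 in HZ. The PZ library at 804 stood apart but was still below every HZ library, and the difference was 1.43 ± 0.22 (adjusted p = 5.28e-06).

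Atp5b, the most abundant member of complex V per kb, had 2521 to 3865 normalised counts in the mouse phalanx PZ and 4456 to 8440 in the HZ and rose by 1.09 ± 0.17 (adjusted p = 9.18e-06). In the rat it had 4282 to 6544 in PZ and 6808 to 11960 in HZ and rose by 0.77 ± 0.15 (adjusted p = 7.34e-05). Sdhd, the other membrane anchor of succinate dehydrogenase, had 200, 262, 219 and 282 in the mouse PZ and 608, 530, 571, 472 and 519 in the HZ. It rose by 1.17 ± 0.26 in the mouse (adjusted p = 0.000538) and by 0.72 ± 0.22 in the rat (adjusted p = 0.00914). Both genes had separate zones in both species.

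Ndufa4 and Cox4i1, the counterparts of Ndufa4l2 and Cox4i2, passed the test in the mouse alone. They rose by 1.44 ± 0.30 and 1.01 ± 0.22 in the mouse phalanx HZ (adjusted p = 0.000236 and 0.00044). In the rat their differences of 0.40 ± 0.18 and -0.22 ± 0.25 did not pass the test (adjusted p = 0.0738 and 0.505). Whether the species differ was not tested.

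The members that fell were again few. Ndufa4l2 had 218, 360, 190 and 296 in the mouse phalanx PZ and 23.7, 6.59, 1.66, 14.5 and 52.9 in the HZ, a log2 difference of -4.28 ± 0.57 (adjusted p = 7.75e-07). Rat libraries had 43.6, 86.5, 101, 63.2 and 28.8 in PZ and 5.1, 27.3, 18.3, 4.71 and 5.92 in HZ, a difference of -2.50 ± 0.51 (adjusted p = 0.000177). Every HZ library was below every PZ library in both species. Per kb, the median ratio of Ndufa4l2 to Ndufa4 in the mouse fell from 1.267 in PZ to 0.02259 in HZ. Atp5sl, which shares the Atp5 name but is an assembly factor of complex I rather than a subunit of ATP synthase, fell by 1.45 ± 0.40 in the mouse (adjusted p = 0.00444) and by 0.69 ± 0.20 in the rat (adjusted p = 0.00599), without overlap. Cox4i2 differed by -2.0 ± 0.79 in the mouse (adjusted p = 0.0488) and by -1.01 ± 0.31 in the rat (adjusted p = 0.0086), with overlapping libraries in both. In the mouse it kept its call under 5 of 17 alternatives. Ndufs3, a core subunit of complex I, fell in the rat by 0.81 ± 0.24 (adjusted p = 0.00777).

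**Figure D3:**
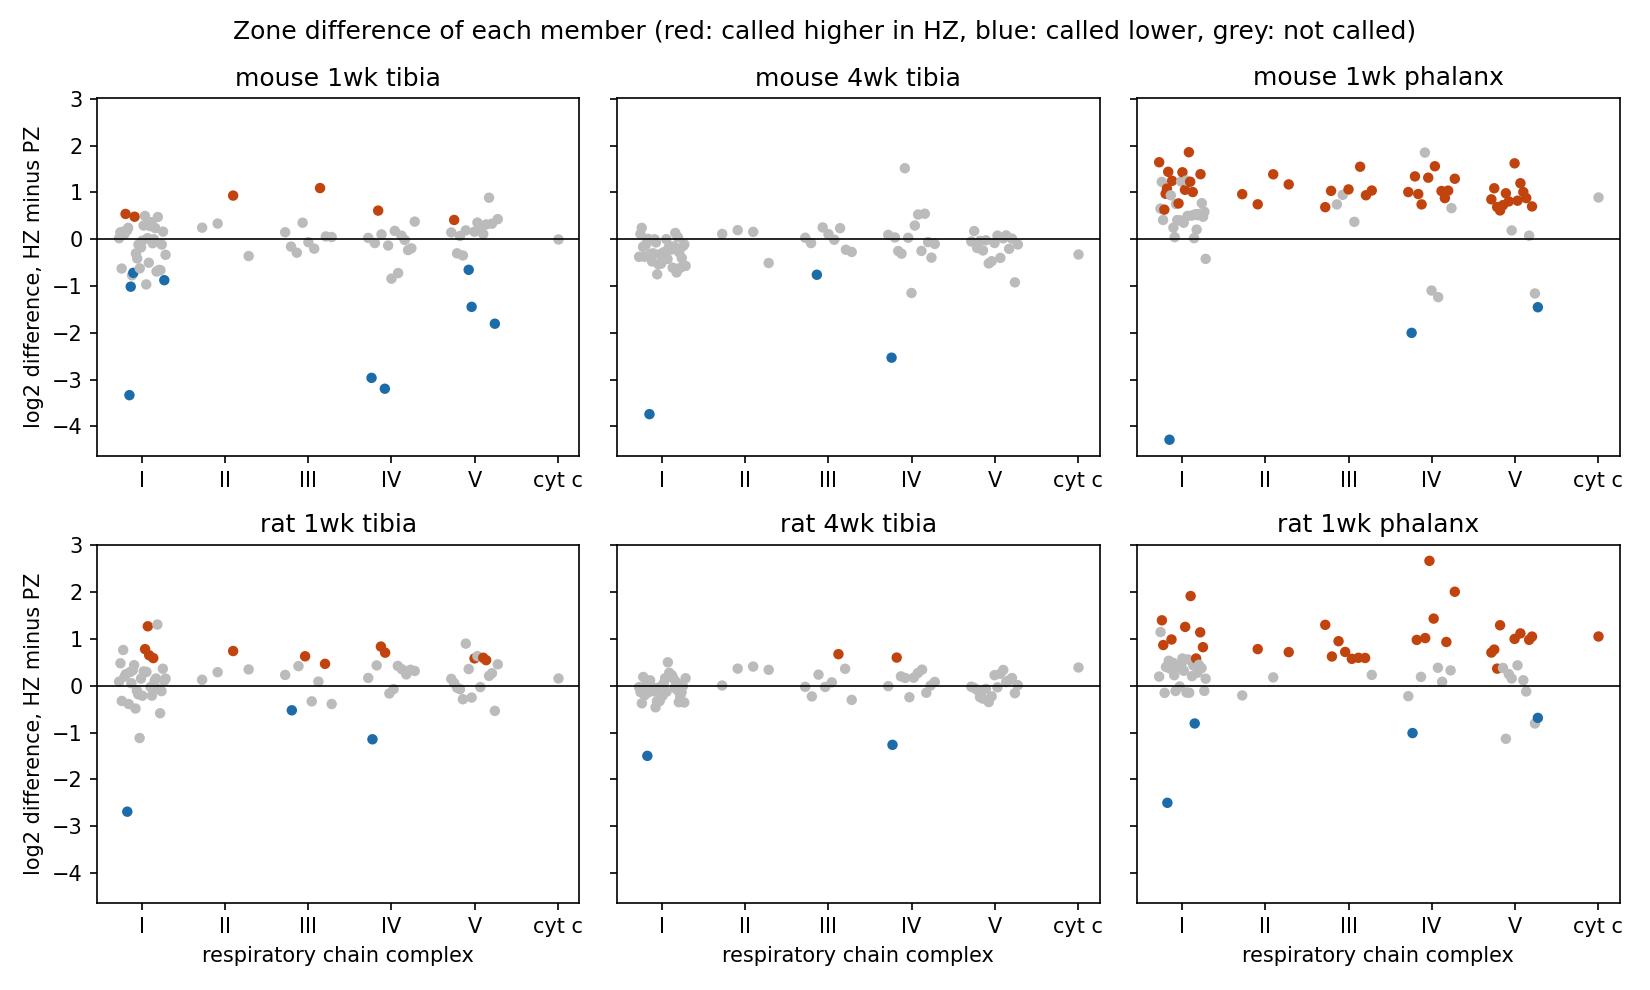
Log2 difference of each tested member, HZ minus PZ, on the vertical axis, grouped by complex on the horizontal axis, for the 3 growth plates of mouse (top) and rat (bottom); red points were called higher in HZ, blue points lower, and grey points did not pass. In the tibia most members lie near 0, while in the phalanx they lie mostly above it, with medians of 0.85 in the mouse and 0.44 in the rat.

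Markers of bone cells differed between the same zones. In the mouse phalanx the macrophage and osteoclast sum was 2620 to 9630 in PZ and 48900 to 116000 in HZ, and the chondrocyte sum 1370000 to 1780000 in PZ and 134000 to 1090000 in HZ. In the rat the macrophage and osteoclast sum was 858 to 3680 in PZ and 12200 to 27200 in HZ, and the chondrocyte sum 2660000 to 3980000 and 1270000 to 2740000. Replicate 5 of the mouse phalanx HZ had the lowest macrophage and osteoclast sum of its group, 48920, the highest chondrocyte sum, 1089000, and the lowest member level. With the score of bone, macrophage and endothelial markers in the model, 3 mouse members (Cox8a, Atp5j and Ndufb8) and 9 rat members still rose and 1 mouse member (Ndufa4l2) and 0 rat members fell. Over the 29 mouse members named as higher in this comparison, the median log2 difference went from 1.04 to 0.86 with the score and the median SE from 0.24 to 0.38. Cox6c had 1.28 ± 0.42 (adjusted p = 0.069) and Uqcr10 1.00 ± 0.35 (adjusted p = 0.0917), against 1.56 and 1.03 without the score, while Atp5a1 had 0.38 ± 0.22 and Cox7b 0.29 ± 0.42, against 0.85 and 1.04. For the 19 named rat members the median went from 0.99 to 0.84 and the median SE from 0.22 to 0.32. The score itself differs between the zones, so a call lost with it does not show that the difference went away, and what part these cells had in the rise was not tested.

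**Figure D4:**
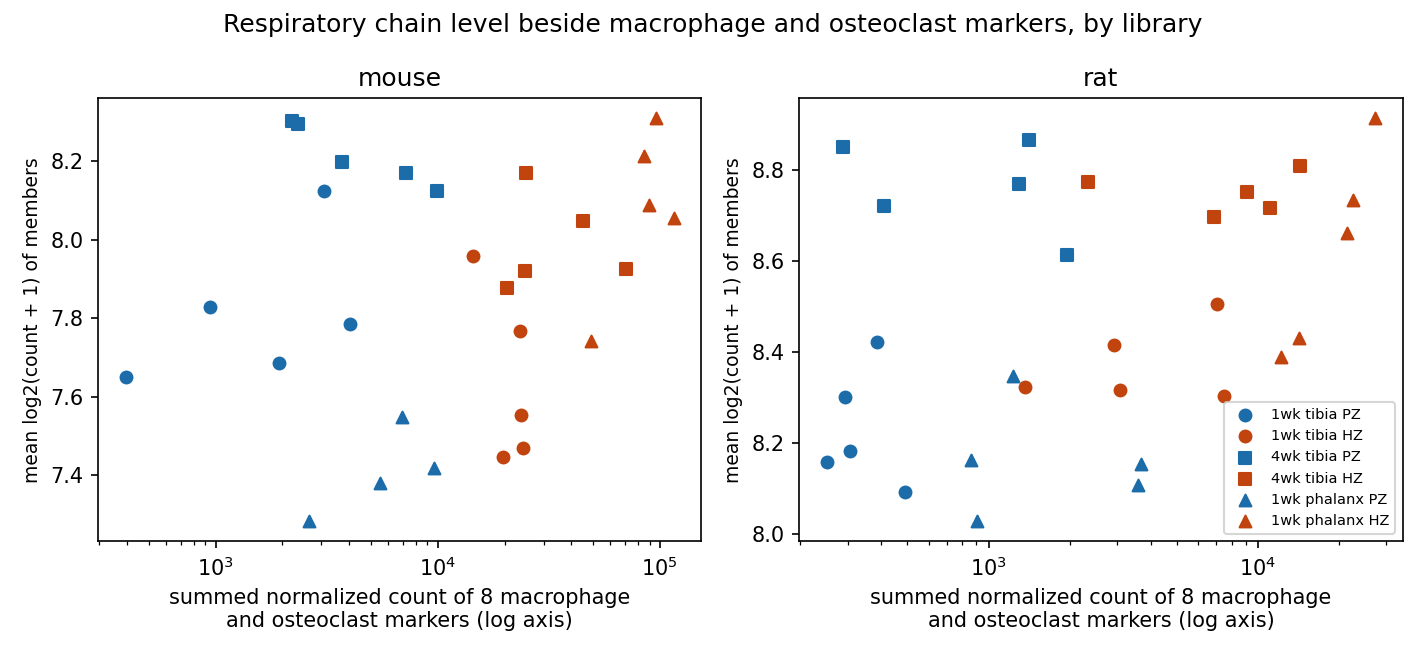
Mean log2(normalised count + 1) over the tested members (vertical axis) against the summed normalised count of 8 macrophage and osteoclast markers (horizontal log axis), 1 point a library (blue PZ, red HZ; circles 1-wk tibia, squares 4-wk tibia, triangles phalanx), mouse at left and rat at right. In the mouse the 4 phalanx HZ libraries other than replicate 5 hold the highest marker sums (85010 to 115700), while replicate 5, at 48920, lies below a 4-wk tibia HZ library at 70180, and the 4-wk tibia PZ libraries have member levels of 8.124 to 8.302 at sums of 2220 to 9900.

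The start sites of the mouse members were searched for motifs of factors known to control nuclear respiratory genes, chosen after the values were seen. The 250 bases before and 50 after each start were read from RefSeq (GRCm38.p6) for the 70 members that matched, on both strands. The NRF1 half-site TGCGCA was present for 18 of the 70 members (25.7%), against 8.79% of 27025 genes, the GABPA motif CCGGAAG for 16 (22.9%), against 9.93%, and the YY1 core AAGATGG for 12 (17.1%), against 7.28%. At least 1 of the 3 was present for 37 of the 70 members (52.9%) and for 22.8% of all genes. The 27025 genes were all those with a RefSeq promoter, whether or not they were detected here. The share among the tested genes alone was not computed. Among those that rose in the phalanx HZ of both species 17 matched and 7 of them (41.2%) held one. With forms of the NRF1 and YY1 motifs 10 letters long, which were counted first, the order was the other way: 10 of the 17 (58.8%), 33 of the 70 members (47.1%) and 14.6% of all genes held at least 1 of the 3. No difference between the 17 and the other members was read from either form. A match describes letters and not binding. In the stretches below, capitals and match counts refer to the NRF1 half-site, the GABPA motif and the YY1 core alone. Matches to the 10-letter forms are not marked, so letters in lower case can hold one. The 250 bases before the start of 3 such members are shown, chosen because all their matches lie before the start, 5′ to 3′ on the gene's strand with the motifs in capitals: Cox6a1 (chr5:115348959-115349208, minus strand) with 1 NRF1 and 1 GABPA match, Sdhd (chr9:50603850-50604099, minus strand) with 2 NRF1 matches and 1 GABPA match, and Uqcrh (chr4:116075071-116075320, minus strand) with 1 GABPA match, all on GRCm38.p6.
Cox6a1: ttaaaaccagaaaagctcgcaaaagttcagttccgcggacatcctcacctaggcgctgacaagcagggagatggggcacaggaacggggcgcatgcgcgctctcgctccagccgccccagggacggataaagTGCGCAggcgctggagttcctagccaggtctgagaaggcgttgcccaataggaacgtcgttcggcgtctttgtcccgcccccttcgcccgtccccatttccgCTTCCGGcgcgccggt
Sdhd: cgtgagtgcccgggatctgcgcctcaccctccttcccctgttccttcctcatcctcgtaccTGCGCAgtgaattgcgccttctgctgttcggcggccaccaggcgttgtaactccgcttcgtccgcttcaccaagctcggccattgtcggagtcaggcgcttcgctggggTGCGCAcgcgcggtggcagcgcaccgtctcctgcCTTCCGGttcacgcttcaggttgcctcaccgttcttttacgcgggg
Uqcrh: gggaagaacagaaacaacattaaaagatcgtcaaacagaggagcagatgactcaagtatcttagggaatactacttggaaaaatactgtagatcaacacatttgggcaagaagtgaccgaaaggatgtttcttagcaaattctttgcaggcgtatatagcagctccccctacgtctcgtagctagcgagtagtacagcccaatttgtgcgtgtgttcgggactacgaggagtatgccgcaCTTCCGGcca

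Of these, Cox6a1 rose in the phalanx HZ by 0.74 ± 0.20 in the mouse (adjusted p = 0.00376) and by 1.02 ± 0.17 in the rat (adjusted p = 1.49e-05). Uqcrh, the hinge protein of complex III, rose by 0.94 ± 0.22 (adjusted p = 0.00124) and 0.59 ± 0.17 (adjusted p = 0.00521).

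Whether the HZ minus PZ difference is unequal in the phalanx and the 1-wk tibia was tested directly, as the bone difference in HZ minus the bone difference in PZ. A positive value means that HZ minus PZ was more positive in the phalanx, not that it was larger in size. This difference of differences was positive for 23 mouse members and negative for 1, against 4.38% and 6.19% of all genes, and positive for 9 rat members and negative for 1, against 7.33% and 8.57%. The median over members was 0.89 in the mouse and 0.41 in the rat, against 0.11 and 0.04 over all genes (0.18 and -0.03 with TMM scaling). Uqcr10, Cox6c, Ndufs7, Cox8a and Atp5a1 passed as positive and Atp5sl as negative in both species. Uqcr10 differed by 1.19 ± 0.30 in the mouse (adjusted p = 0.00866) and by 1.15 ± 0.25 in the rat (adjusted p = 0.00158), and Cox6c by 1.38 ± 0.36 (adjusted p = 0.0121) and 1.51 ± 0.32 (adjusted p = 0.00116). Atp5sl differed by -1.88 ± 0.55 (adjusted p = 0.0233) and -1.14 ± 0.28 (adjusted p = 0.00486). For Ndufa4l2 the test was not passed (-0.95 ± 0.78 in the mouse, adjusted p = 0.486, and 0.19 ± 0.72 in the rat, adjusted p = 0.894). Without replicate 3 of the mouse phalanx HZ, 15 mouse members passed, and without replicate 5 of the mouse 1-wk tibia PZ, 14. Without replicate 5 of the rat phalanx PZ, 18 rat members passed. A fit of only the groups compared called 7 in the mouse.

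The age comparison, 4 wk against 1 wk in the tibia, bears on the slowing of growth with age. Members rose with age and none passed as lower. In PZ 11 mouse members rose (13.3%), against 5.19% of all genes, and 25 rat members (32.5%), against 9.63%. Of all genes, 3.39% of mouse and 6.45% of rat genes fell, while 0 members did by limma, at an unadjusted p under 0.05 or by limma-voom. The median log2 difference was 0.40 over mouse members and 0.06 over all genes, and 0.53 and 0.04 in the rat. The libraries of the 2 ages did not overlap, with 4 wk higher, for 22 mouse members, against 9.19% of all genes, and for 32 rat members, against 8.89%.

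Atp5j, Uqcrh and Atp5h rose with age in PZ in both species. Atp5j, a coupling subunit of ATP synthase, had 318, 354, 298, 354 and 588 normalised counts in the mouse 1-wk PZ and 505, 713, 742, 758 and 885 at 4 wk. A single 1-wk library, at 588, lay within the 4-wk range, and the log2 difference was 0.93 ± 0.20 (adjusted p = 0.00234). In the rat it had 634, 887, 1037, 1027 and 1141 at 1 wk and 1634, 1196, 2788, 2052 and 1590 at 4 wk, without overlap, a difference of 0.94 ± 0.21 (adjusted p = 0.00169). Uqcrh had 353, 433, 421, 375 and 690 in the mouse 1-wk PZ and 611, 720, 823, 711 and 783 at 4 wk. It rose by 0.72 ± 0.21 (adjusted p = 0.0276), although the library at 690 overlapped. Rat libraries had 597, 1117, 832, 848 and 1096 at 1 wk and 1495, 1511, 1385, 1544 and 1208 at 4 wk, all higher, a difference of 0.70 ± 0.17 (adjusted p = 0.00345). Atp5h, another subunit of the ATP synthase stalk, rose by 0.70 ± 0.20 (adjusted p = 0.024) and 0.87 ± 0.29 (adjusted p = 0.0368).

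By complex, the rat PZ rise took in 11 of 35 members named for complex I, 8 of 17 of complex V, 4 of 12 of complex IV, 2 of 8 of complex III and 0 of 4 of complex II. Ndufa4 had the smallest adjusted p of the named rat members, with 645, 1348, 996, 1133 and 1226 at 1 wk and 1837, 1620, 2105, 2277 and 2093 at 4 wk. All 4-wk libraries were higher, by 0.93 ± 0.18 on the log2 scale (adjusted p = 0.000368). In the mouse the rise took in 4 of 17 members of complex V, 2 of 15 of complex IV, 2 of 9 of complex III, 2 of 37 named for complex I and 1 of 4 of complex II, the latter being Sdha (0.64 ± 0.15, adjusted p = 0.00617). The mouse share of complex I, 5.41%, was near the 5.19% of all mouse genes, so it is not a result about complex I.

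In HZ 9 mouse members rose with age (10.8%), against 8.83% of all genes, and 15 rat members (19.5%), against 6.68%. The mouse share was near that of all genes. None was called lower by limma, against 6.72% of mouse and 7.06% of rat genes, or by limma-voom, and 1 mouse member and 0 rat members were lower at an unadjusted p under 0.05. The median was 0.31 over mouse members and 0.17 over all genes, and 0.35 and 0.09 in the rat. Cox6c (0.91 ± 0.25 in the mouse, adjusted p = 0.0117, and 0.77 ± 0.22 in the rat, adjusted p = 0.0179), Ndufb11 (0.97 ± 0.31, adjusted p = 0.0312, and 0.77 ± 0.18, adjusted p = 0.00413) and Ndufa5 (1.11 ± 0.37, adjusted p = 0.0355, and 0.87 ± 0.24, adjusted p = 0.0117) rose in both. Ndufb11 and Ndufa5 are accessory subunits of complex I. The age difference in HZ minus that in PZ passed for 0 members of either species by limma, against 2.45% of mouse and 4.35% of rat genes. At an unadjusted p under 0.05 there were 7 mouse and 3 rat members, and limma-voom called 0.

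Marrow markers differed between the ages in part of the same libraries. In the rat PZ the erythroid sum was 466 to 878 at 1 wk and 3690 to 16000 at 4 wk, the B lymphocyte sum 16.2 to 102 and 290 to 952, and the neutrophil sum 32.4 to 188 and 750 to 5130, none overlapping. In the rat HZ the B lymphocyte sums were separate (96.1 to 662 and 1130 to 1720), while the erythroid (4420 to 11100 and 5890 to 12900) and neutrophil sums (442 to 1740 and 559 to 3880) overlapped. The same held in the mouse PZ, where the B lymphocyte sum was 28 to 195 and 214 to 928, and in the mouse HZ, where it was 246 to 1250 and 1410 to 3970. With a score of these markers in the model 0 rat members rose with age in PZ and 1 in HZ (Ndufb11), and 5 mouse members did in PZ, among them Atp5j, Cox6a1, Ndufa1 and Sdha, and 2 in HZ, among them Cox7b. Over the 13 rat members named as higher in PZ, the median log2 difference went from 0.87 to 0.75 with the score and the median SE from 0.20 to 0.42. Atp5j had 0.99 ± 0.44 (adjusted p = 0.344) and Ndufa4 0.70 ± 0.37 (adjusted p = 0.455), while Ndufb8 had 0.28, against 0.79 without the score. In the rat HZ the median of the 8 named members went from 0.74 to 0.66 and the median SE from 0.22 to 0.27. The score itself follows age, so what part marrow cells had in the rise was not tested. Markers of HZ also differed with age in the PZ captures. In the mouse tibia PZ the 3 HZ markers summed to 2570 to 9420 at 1 wk and to 32700 to 75200 at 4 wk, without overlap. In the rat tibia PZ the 2 that were listed summed to 851 to 1790 and to 1200 to 20900. What part this had in the rise was not tested either. Ribosomal share and depth also differed with age. In the mouse tibia PZ Rn45s took 44.7% to 60.2% of reads at 1 wk and 31.0% to 37.2% at 4 wk. In the mouse tibia HZ it took 65.8% to 80.8% and 46.9% to 56.4%. Rat tibia PZ libraries held 11707550 to 15762416 reads at 1 wk and 22122369 to 28994264 at 4 wk. Those of the HZ held 7808455 to 11054499 and 17746468 to 26074827. The part of share and depth in the rise was not tested. A fit of only the groups compared called 36 mouse and 38 rat members in PZ but 1 mouse member in HZ. Leaving out 1 mouse PZ library gave between 3 and 13 members, with 3 without replicate 3 or 5 at 4 wk or replicate 1 or 3 at 1 wk. In the mouse HZ the count was 16 without replicate 5 at 1 wk and 5 without replicate 1 at 4 wk, and in the rat HZ it was 9 without replicate 3 at 1 wk and 8 without replicate 1 at 4 wk.

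**Figure D5:**
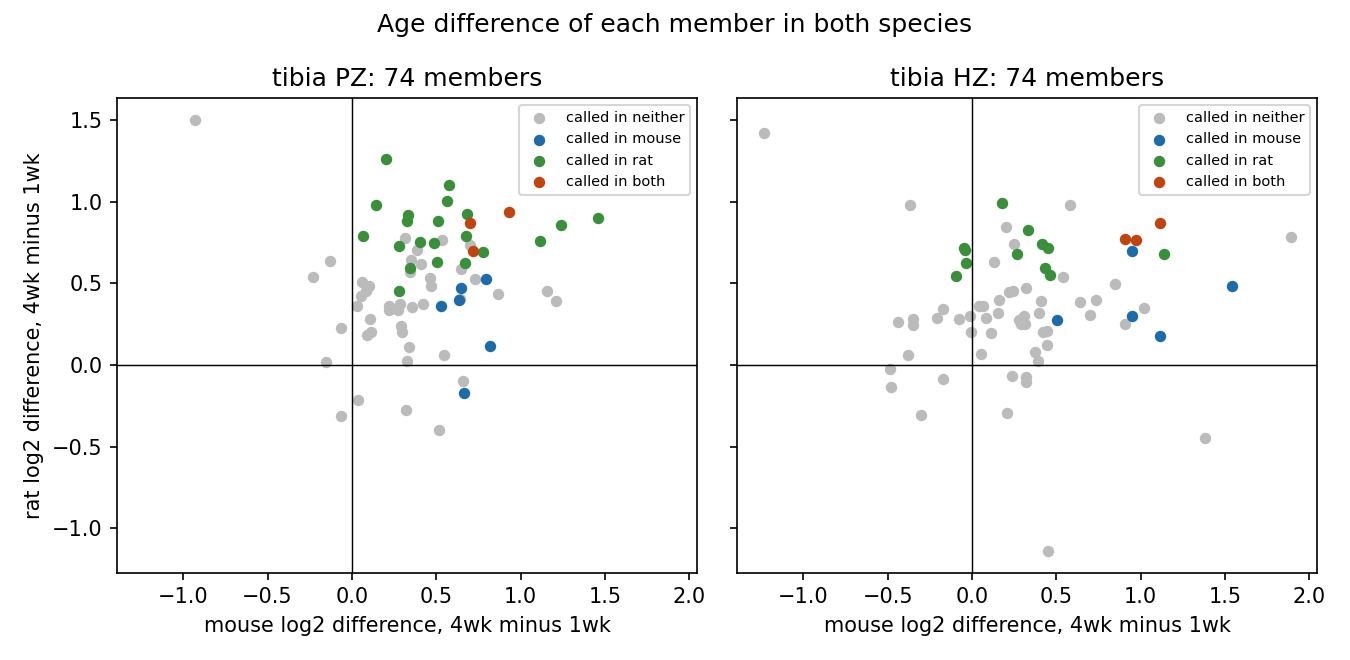
Log2 difference of each member tested in both species, 4 wk minus 1 wk in the tibia, mouse on the horizontal and rat on the vertical axis, PZ at left and HZ at right; red points passed in both species, blue in the mouse, green in the rat and grey in neither. Most members lie above 0 on both axes, and Atp5j in PZ lies at 0.93 in the mouse and 0.94 in the rat.

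The bone comparison set the phalanx against the tibia at 1 wk. It shares the 1-wk tibia libraries with the age comparison, so a high or low value there enters both. In PZ few members passed the test. In the mouse 0 rose and 4 fell in the phalanx, against 3.23% and 1.86% of all genes, and in the rat 0 rose and 3 fell, against 6.77% and 3.67%. At an unadjusted p under 0.05, 0 mouse members and 1 rat member were higher, and limma-voom called 0 higher in either, while 20 mouse and 6 rat members were lower at that p. The median log2 difference was -0.35 over mouse members, of which 74 of 83 were below 0, and 0.01 over all genes, and -0.04 and 0.03 in the rat. TMM scaling gave 1 rat member higher. Ndufa4l2 was lower in both species, by 2.10 ± 0.57 on the log2 scale in the mouse (adjusted p = 0.0245) and by 2.33 ± 0.51 in the rat (adjusted p = 0.00176), with no overlap between the PZ libraries of the 2 bones given above. The other mouse members were Ndufb8 (-1.19 ± 0.36, adjusted p = 0.0464), Atp5g1 (-0.80 ± 0.24, adjusted p = 0.0421) and Cox6a2, which was listed at 0 in all 4 phalanx PZ libraries and at 4.43 to 37.4 in the tibia. The other rat members were Ndufa7 (-0.83 ± 0.25, adjusted p = 0.0309) and Ndufa11 (-1.40 ± 0.44, adjusted p = 0.0342). The mouse count rested on single libraries, being 0 without replicate 4 of the phalanx PZ or replicate 2 of the tibia PZ and 1 without phalanx replicate 1 or 2 or tibia replicate 3 or 5. The rat count was 1 without phalanx replicate 5 or tibia replicate 2 or 3.

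In HZ 23 mouse members rose in the phalanx (27.7%) and 3 fell, against 9.77% and 9.2% of all genes, and 23 rat members rose (29.9%) and 10 fell, against 19.7% and 16.3%. The 3 mouse members that fell were Ndufa4l2 (-3.05 ± 0.53), Atp5sl (-1.31 ± 0.38) and Ndufa8. Cox7b, Ndufa5, Ndufs7, Uqcr10, Sdhd, Atp5g3, Ndufc2 and Atp5a1 rose and Ndufa4l2 and Atp5sl fell in both species. Cox7b, a small subunit of complex IV, had 136, 447, 324, 198 and 328 normalised counts in the mouse tibia HZ and 729, 680, 650, 533 and 318 in the phalanx HZ. The phalanx library at 318 was replicate 5, and the log2 difference was 1.08 ± 0.27 (adjusted p = 0.00381). In the rat it had 672, 483, 668, 648 and 540 in the tibia and 1059, 1008, 1330, 1176 and 1684 in the phalanx, all higher, a difference of 1.04 ± 0.18 (adjusted p = 2.21e-05).

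Atp5j2, Ndufb8 and Sdha went opposite ways in HZ. In the mouse phalanx they were higher, by 0.67 ± 0.20, 1.17 ± 0.34 and 0.75 ± 0.15 on the log2 scale (adjusted p = 0.016, 0.0137 and 0.000576). In the rat phalanx they fell by 0.62 ± 0.20, 0.62 ± 0.25 and 0.59 ± 0.22 (adjusted p = 0.0175, 0.0483 and 0.0306). The species difference itself was not tested. Without replicate 3 of the mouse phalanx HZ 13 mouse members rose, without replicate 4 of it 14 and without replicate 3 of the mouse tibia HZ 15. A fit of only the groups compared called 3 mouse members, while it called 23 in the rat. With the bone, macrophage and endothelial score in the model 11 members rose in each species.

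Isoforms of striated muscle were scarce. Cox6a2, Cox7a1 and Cox8b, the heart and muscle forms of complex IV subunits 6a, 7a and 8, had normalised counts of at most 79.1, 47.0 and 40.8 in any mouse library. Cox6a2 had 0, 0, 0, 0 and 3.9 in the mouse 1-wk tibia HZ and 4.43 to 37.4 in the PZ, without overlap. Its log2 difference of -3.19 ± 1.02 (adjusted p = 0.0109) rests on these low counts and on the 1 added to them. The highest values came from the same group: replicate 1 of the mouse 4-wk tibia HZ had the highest Cox6a2 (79.1) and Cox8b (40.8), with Cox7a1 at 46.8, while replicate 4 of that group had the highest Cox7a1 (47.0). The 15 skeletal muscle markers summed to 232 to 8840 in that group and to 712 to 8590 in the mouse 1-wk tibia PZ. The common isoform Cox6a1 was listed at 746 to 2436 in the mouse libraries, and Cox7a2 at 123 to 489. Cox6b2, the testis form of subunit 6b, had 0 to 186 in the mouse. Rat libraries had 2.42, 30.2, 20.2, 20.0 and 38.9 in the phalanx PZ and 103, 136, 104, 86.6 and 149 in the HZ, all higher, a log2 difference of 2.67 ± 0.77 (adjusted p = 0.00549). The 3 genes for subunit c of ATP synthase, which encode the same mature protein, are Atp5g1, Atp5g2 and Atp5g3. In the mouse 1-wk tibia HZ Atp5g1 fell by 0.65 ± 0.23 and Atp5g2 by 1.44 ± 0.54, and Atp5g3 differed by 0.16 ± 0.25 (adjusted p = 0.642). In the phalanx HZ Atp5g3 rose by 1.62 ± 0.27 and Atp5g1 by 0.81 ± 0.24, and Atp5g2 differed by 0.19 ± 0.57 (adjusted p = 0.832). Differences between the 3 genes were not tested.

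Other genes of mitochondria and of translation were counted beside the members. Of 16 genes of the tricarboxylic acid cycle and pyruvate dehydrogenase, 7 rose and 0 fell in the phalanx HZ of each species, or 43.8%, with median log2 differences of 0.65 in the mouse and 0.47 in the rat, against 17.9% and 22.9% of all genes called higher. Mitochondrial ribosomal proteins had there 6 of 77 higher and 1 lower in the mouse (median 0.24) and 14 of 70 higher and 5 lower in the rat (median 0.16), shares of 7.79% and 20% that were below those of all genes. Assembly factors of the complexes had 4 of 43 higher and 2 lower in the mouse phalanx HZ and 0 higher and 12 lower in the mouse 1-wk tibia HZ, with a median of -0.54 in the latter, where the 27.9% called lower stood beside 23.7% of all genes. Their rat counts were 5 of 34 higher and 4 lower in the phalanx HZ (median 0.07) and 3 higher and 3 lower in the 1-wk tibia HZ (median -0.20). Of 14 regulators of mitochondrial biogenesis, 1 rose and 4 fell in the mouse phalanx HZ and 1 rose and 2 fell in the rat. Cytosolic ribosomal proteins fell in the tibia HZ, with 75 of 82 lower in the mouse and 50 of 80 lower in the rat at 1 wk (medians -0.85 and -0.49). In the phalanx HZ 2 were higher and 14 lower in the mouse (median -0.14), and 13 were higher and 7 lower in the rat (median 0.06). Their difference of differences between bones was positive for 46 mouse and 32 rat genes, with medians of 0.73 and 0.58, beside 0.89 and 0.41 for the respiratory chain members.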

How the data were processed

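Nuclear respiratory chain genes were chosen by symbol. Members and gene lists were chosen with earlier results of these data known. RNA was amplified per animal (Ovation RNA-Seq System V2) by the authors, and 50 bp read pairs came from Nextera XT libraries. Reads were aligned by STAR 2.4.2 to mm10 or rn6, counted by featureCounts 1.4.6 and normalised by Relative Log Expression. The annotation release, strand setting and low-count filter are not given in the sources used here. The deposited values are log2(normalised count + 1), as made by the authors. Amplified reads are not independent molecules.

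Names turned into dates by a spreadsheet (26 mouse, 27 rat) were left out, and where a rat symbol was listed again (216 entries) only the highest mean was kept. All value columns were matched to a sample. Of 60 samples 59 were analysed. Reads per library were recovered from the step between values (100% of values under 200 reads within 0.05 of a whole read).

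The log2 values of genes reaching a normalised count of 10 in 5 or more libraries were fitted with limma 3.58.1 in R 4.3.3 (statmod 1.5.0, 6 groups a species, empirical Bayes with trend and robust settings). The plan allowed for linear or log2 values, and the latter were used as deposited. P-values were adjusted by Benjamini-Hochberg over all genes tested in a comparison, and a gene was called, written as rose or fell, at an adjusted p under 0.05 with no fold minimum. Log2 differences carry SE. The fit was tested on simulated data. Mouse positions are those of GENCODE M21 on GRCm38. Levels per kb use the joined length of all its exons of a gene, and promoters are RefSeq GRCm38.p6 (70 of 86 members matched). Members given in full were tissue- or oxygen-dependent isoforms with their counterparts, the 2 members per comparison called in both species with the smallest larger adjusted p, members of counts of 5 or fewer, and the highest and lowest member per complex. Further members were named for their role.

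Alternatives were a pseudocount of 4, no filter, only the groups compared, a replicate block, TMM scaling and leaving out each library. Limma-voom on recovered reads, a marrow marker score and a score of bone, macrophage and endothelial markers as covariates were added after seeing the data. Figures were drawn with matplotlib 3.10.9.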

Additional observations from a re-analysis of the deposited data

Results flagged for a closer look

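For 13 of 156 sets of library values checked, 1 library lay far from the others of its group by Dixon's test, which chance gives in about 1 in 20 sets. In the mouse these were the highest normalised counts of Atp5j (588) and Uqcrh (690) in the 1-wk tibia PZ, of Cox6a2 in the 1-wk tibia HZ (3.9) and the 4-wk tibia HZ (79.1), of Cox4i1 (1100), Cox6c (725) and Cox6b2 (55.6) in the 4-wk tibia HZ, and of Cox6b2 in the phalanx PZ (186). In the rat they were the highest counts of Cox4i2 in the 1-wk tibia PZ (857), of Ndufa4l2 (215) and Cox6b2 (131) in the 4-wk tibia HZ and of Cox6c in the phalanx PZ (804), and the lowest of Cox6c in the 4-wk tibia HZ (475).

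The zone difference at 1 wk differed between phalanx and tibia for 24 mouse and 10 rat members in limma's test of the difference itself. Among the mouse members given by name, the log2 values were 2.36 for Ndufb8, 2.05 for Ndufs7, 1.95 for Ndufa5, 1.62 for Ndufa1, 1.53 for Sdhd, 1.46 for Atp5g1, 1.46 for Atp5g3, 1.38 for Cox6c, 1.27 for Cox7b, 1.19 for Uqcr10, 0.98 for Cox4i1, 0.93 for Atp5j, 0.92 for Cox8a, 0.90 for Atp5j2, 0.72 for Sdha, 0.71 for Atp5a1 and -1.88 for Atp5sl. Cox6a2 had 5.04, a value that depends on the added 1, since the gene was listed at 0 in all 4 phalanx PZ libraries. In the rat they were 1.94 for Ndufc2, 1.73 for Ndufs7, 1.69 for Cox8a, 1.51 for Cox6c, 1.15 for Uqcr10, 1.07 for Cyc1, 0.71 for Atp5b, 0.56 for Atp5a1 and -1.14 for Atp5sl.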

How the results depend on the processing

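Counts of called members are given as higher and lower. With a pseudocount of 4 every count stayed within 1.5 times the reported one. TMM scaling gave 3 higher for the zones of the mouse 1-wk tibia, 1 higher for those of the rat 4-wk tibia and 1 higher for the rat PZ between bones. Without a filter the mouse PZ between bones had 2 lower and the rat 4-wk tibia zones 0 higher.

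Limma-voom gave 3 higher and 5 lower in the mouse 1-wk tibia zones, 1 and 10 in the mouse 4-wk tibia zones, 19 higher with age in the mouse PZ and 2 in the mouse HZ, 2 lower in the mouse PZ and 10 higher in the mouse HZ between bones, 13 for the mouse zone-by-bone test and 1 lower in the rat PZ between bones.

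With only the groups compared, the mouse 1-wk tibia zones had 3 higher and 5 lower, the mouse 4-wk tibia zones 1 and 8, the rat 4-wk tibia zones 4 higher, the mouse PZ 36, the rat PZ 38 and the mouse HZ 1 higher with age, the mouse HZ between bones 3 and 1, the rat PZ between bones 1 lower, the mouse zone-by-age test 1 and the mouse zone-by-bone test 7. With a replicate block added to that fit, the mouse 1-wk tibia zones had 4 lower, the mouse 4-wk tibia zones 1 higher and 9 lower, the rat 4-wk tibia zones 5 higher, the mouse phalanx zones 30 higher, the mouse PZ 33 and the mouse HZ 0 higher with age, the mouse PZ between bones 10 lower, the mouse HZ between bones 1 and 1, the rat PZ between bones 1 lower, and the mouse zone-by-age and zone-by-bone tests 1 and 6. The numbers were not taken to pair the libraries: same-numbered PZ and HZ libraries correlated in their deviations from group means by 0.0285 to 0.111 in the mouse 1-wk tibia, 0.037 to 0.158 in the mouse 4-wk tibia and 0.00471 to 0.0878 in the mouse phalanx. A library correlated best with its own number in 5 of 5, 5 of 5 and 3 of 4 of these pairs, and in the rat in 1, 2 and 4 of 5 in the 1-wk tibia, 4-wk tibia and phalanx, a hint from the data and not the design.

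With the score of bone, macrophage and endothelial markers as a covariate, higher and lower counts were 0 and 0 in the mouse 1-wk tibia zones, 3 and 1 in the mouse phalanx zones, 6 and 0 in the rat 1-wk tibia zones, 0 and 0 in the rat 4-wk tibia zones and 9 and 0 in the rat phalanx zones. The mouse 4-wk tibia zones had 1 lower, the mouse PZ 1 higher with age, the mouse HZ 4 and the rat HZ 8. Between bones the mouse PZ had 0 lower, the mouse HZ 11 higher, the rat PZ 1 higher and 0 lower and the rat HZ 11 and 1. With the marrow score, counts with age were 5 higher in the mouse PZ, 2 higher and 1 lower in the mouse HZ, 0 higher in the rat PZ and 1 in the rat HZ, the mouse zone-by-age test had 1, the rat tibia zones 3 higher at 1 wk and 0 at 4 wk, and the rat PZ between bones 0 lower. Both scores were added after seeing the data and differ between the groups, so calls lost with them cannot be told apart from the group difference.

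Leaving out each library in turn gave, in the mouse, 3 to 8 higher and 6 to 11 lower for the 1-wk tibia zones (3 without PZ replicate 1, 3 or 4), 0 to 0 higher and 2 to 4 lower for the 4-wk tibia zones, 42 to 53 higher and 2 to 3 lower for the phalanx zones, 3 to 13 higher in PZ and 5 to 16 higher and 0 to 1 lower in HZ with age, 0 to 3 lower in PZ and 13 to 31 higher and 2 to 3 lower in HZ between bones, and 0 to 1 and 14 to 35 for the zone-by-age and zone-by-bone tests. In the rat it gave 6 to 14 higher and 3 to 4 lower for the 1-wk tibia zones (6 without HZ replicate 4 or 5), 0 to 2 higher and 1 to 2 lower for the 4-wk tibia zones, 28 to 35 higher and 4 to 4 lower for the phalanx zones, 19 to 26 and 8 to 18 higher in PZ and HZ with age, 0 to 1 higher and 1 to 4 lower in PZ and 20 to 27 higher and 5 to 10 lower in HZ between bones (5 without phalanx HZ replicate 3), and 9 to 18 for the zone-by-bone test.

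Of 196 calls of single members, 190 stayed past the threshold with TMM scaling, 194 with a pseudocount of 4, 180 without a filter, 159 with limma-voom, 146 in fits of the compared groups, 140 once the replicate block was included, 144 with the marrow score and 78 with the bone, macrophage and endothelial score, as did 1818 of 2176 with a library left out, and 0 changed direction. The cause of the changes was not tested. Whole-tissue capture, 4 or 5 libraries a group and a large ribosomal share in the mouse limit the precision.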
